A study of Mus musculus with 12 samples.

Results

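A set of 10 genes that encode scavenger and lectin receptors of macrophages was followed in mouse lung after paraquat: Marco, Msr1, Cd36, Scarb1, Stab1, Cd163, Vsig4, Mrc1, Clec7a and Siglec1. They were chosen by name, with earlier results of these data known. Their rows were taken by symbol, giving 10 of the 20774 genes in the tables. All 10 passed the filter on low counts, among 15921 genes tested, but Vsig4 passed only through PQ 1w: it had 62 to 117 counts in those libraries and 0 to 9 in the other 9.

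Scavenger receptors are surface proteins of phagocytes that bind modified lipoproteins, dying cells, bacteria and inhaled particles and carry them into the cell. Lectin receptors do the same for sugar structures on microbes, blood proteins and other cells. In the resting lung, alveolar macrophages clear particles and surfactant from the airspace, macrophages of the interstitium lie in the tissue around vessels and airways, and several of these receptors are also made outside macrophages, such as Cd36 and Stab1 in endothelium and Scarb1 in epithelial and endothelial cells.

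Homogenized lung of wild-type C57BL/6J mice, labelled as 8 weeks old, gave the RNA that was sequenced. The age label is the same at both times, and whether it means the age at dosing or at sampling is not given in the sources used here. The PQ mice had received 1 intratracheal dose of paraquat, a redox-cycling herbicide that injures the lung, and the control mice saline. There were 4 groups of 3 libraries, PQ 1w, control 1w, PQ 4w and control 4w, in which the time labels were read as weeks. The libraries were not stated to come from separate animals, so p-values measure the spread between these samples only, which may be technical. Library totals were 17220978 to 18559809 expected counts, the read numbers that RSEM assigns to a gene. Levels are given as CPM, counts scaled to the library total, and effects are log2 ratios ± standard error from edgeR's quasi-likelihood test with Benjamini-Hochberg adjustment over all genes tested, with a call at adjusted p under 0.05. The ± after a CPM or FPKM mean is an SD with n = 3, and coordinates are on GRCm38 (mm10). In whole lung, fewer cells of a type and less RNA per cell cannot be told apart.

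At 1 week 9 of the 10 receptors rose and 1, Cd36, fell, while 48.8% of all genes tested changed in either direction (25.9% higher and 22.9% lower). Without Vsig4, whose place among the tested genes depended on its PQ 1w counts, 8 rose and 1 fell. The median log2 effect of the 10 was 1.79, against 0.01 over all genes tested. All 10 had groups that did not overlap, 9 higher in PQ 1w and 1 lower, beside 31.5% of all genes not overlapping on the higher side and 27.1% on the lower side. Both the median and this count include Vsig4, whose separation is not independent of the filter. At 4 weeks 3 receptors rose (Msr1, Mrc1 and Siglec1), 1 fell (Marco) and 6 were not called, while 12.1% of all genes changed, 5.75% higher and 6.39% lower. Of all genes called at 4 weeks 47.4% were higher, and 68.5% when libraries were scaled to their totals alone; no receptor changed direction with either other scaling. The median log2 effect of the 10 at 4 weeks was 0.38, against 0.00 over all genes. Groups did not overlap for 5 receptors at 4 weeks, 4 higher in PQ 4w and 1 lower, beside 20.9% and 10.4% of all genes.

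**Figure D1:**
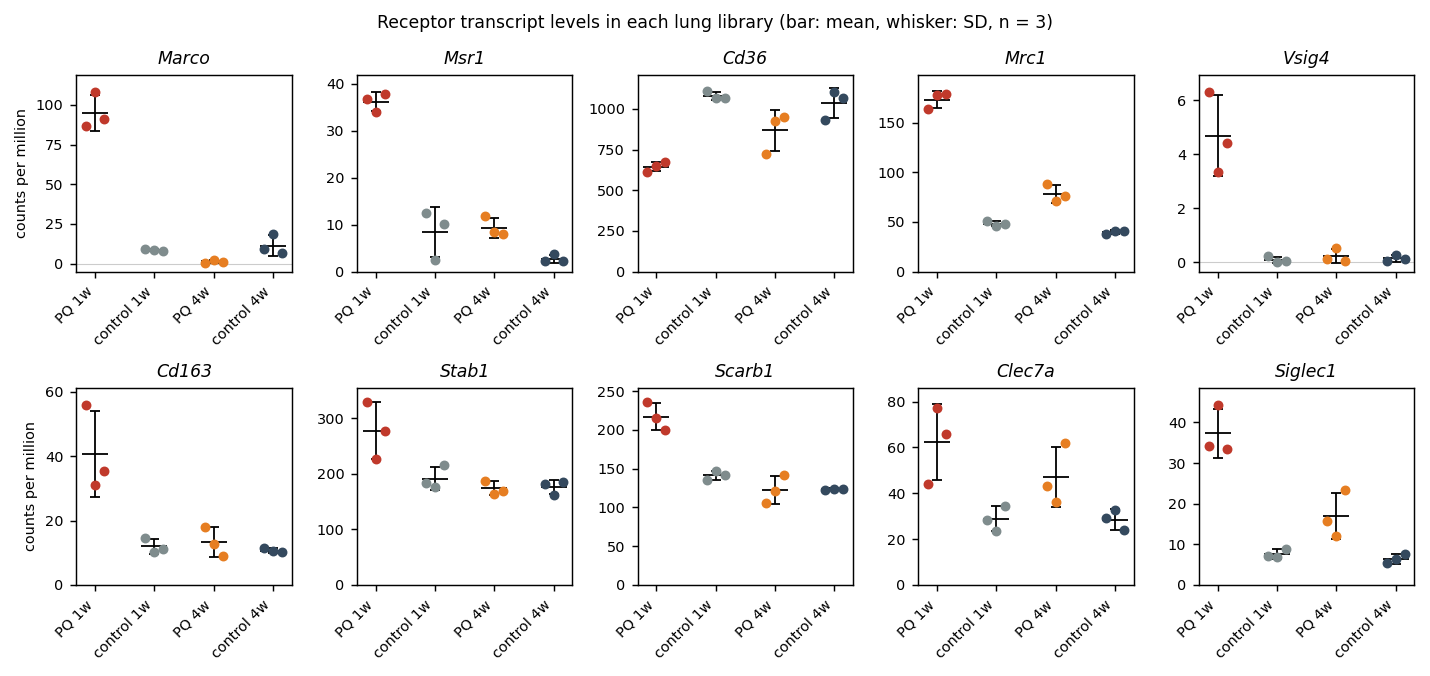
Level of each receptor in CPM (vertical axis of each panel, linear, from 0) in the 12 libraries; points are libraries, bars group means and whiskers SD (n = 3), in the order PQ 1w, control 1w, PQ 4w and control 4w. Every PQ 1w point lies above every control 1w point except in the Cd36 panel, where all 3 lie below, and all 3 PQ 4w points of Marco lie below its 3 control 4w points.

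Marco and Msr1 are the class A receptors of the set, trimeric collagen-like proteins; Marco binds inhaled particles and bacteria on alveolar macrophages, and Msr1 takes up modified low-density lipoprotein. Marco moved in opposite directions at the 2 times. It (NCBI gene 17167, chromosome 1, 120474538 to 120505024) was at 86.6, 108.1 and 90.8 CPM in PQ 1w, against 9.02, 8.30 and 8.00 CPM in control 1w. It rose 11.2-fold (log2 3.48 ± 0.34, adjusted p = 6.8e-06), the 72nd highest effect of the 15921 genes. At 4 weeks Marco was at 0.407, 2.52 and 1.14 CPM in PQ 4w, against 8.84, 18.7 and 6.51 CPM in control 4w. All 3 PQ 4w libraries were below all 3 controls, and these levels rest on 7, 44 and 20 counts in PQ 4w and 157, 327 and 116 in control 4w. Marco was 8.65-fold lower (log2 -3.11 ± 0.46, adjusted p = 0.0021), the 7th lowest effect of all genes tested at that time. The effect at 4 weeks minus that at 1 week was -6.60 ± 0.56 (adjusted p = 2.2e-05), the 3rd lowest of all genes. Without PQ 4w replicate 2, the PQ 4w library with the most Marco, the 4-week effect was -3.92, and without control 4w replicate 2 it was -2.56, and the call held in both.

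Msr1 (NCBI gene 20288, chromosome 8, 39543232 to 39642750) was at 36.7, 34.0 and 37.9 CPM in PQ 1w, against 12.5, 2.49 and 10.2 CPM in control 1w. All PQ 1w libraries were higher, and control 1w replicate 2 was low among the controls. Msr1 rose 4.28-fold (log2 2.10 ± 0.38, adjusted p = 0.000765), and without control 1w replicate 2 the effect was 1.67 (adjusted p = 7.4e-05). At 4 weeks it was at 11.8, 8.36 and 7.96 CPM in PQ 4w, against 2.20, 3.65 and 2.30 CPM in control 4w, again without overlap, and rose 3.29-fold (log2 1.72 ± 0.44, adjusted p = 0.0253). That call was lost without control 4w replicate 1 (adjusted p = 0.102), without control 4w replicate 3 (adjusted p = 0.0784) and without PQ 4w replicate 1 (adjusted p = 0.0837). The effects at the 2 times differed by -0.38 ± 0.58 (adjusted p = 0.652).

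Sequence upstream of the start was looked at where a reference entry existed, since 9 of the receptors moved the same way at 1 week. RefSeq windows of 250 bases before to 50 after the start (GRCm38.p6) were found for 7 receptors, with 8 windows among 32851 in all; Msr1, Scarb1 and Siglec1 had no entry. A total of 4 motifs were searched on both strands. A PU.1-type ETS site, GAGGAAG, PU.1 being a factor of myeloid cells, stood in 13.6% of all windows, and among the receptors in Marco and Mrc1. A STAT6-type site, TTC and GAA with any 4 bases between them, the form bound by the interleukin-4 signalling factor, stood in 6.95% of all windows, and among the receptors in Cd36 and Clec7a. The antioxidant response element core TGACNNNGC, in 12.4% of all windows, and the AP-1 site TGANTCA, in 7.81%, were in 0 of the receptors' windows. The 3 windows shown are those of the receptor that reversed between the times (Marco), the one with the smallest p at both times (Mrc1) and the one that fell at 1 week (Cd36). Each is written 5′ to 3′ on the gene's strand, with matches in capitals. Marco (chr1:120504975-120505274, minus strand) has the PU.1-type letters once, at -146 to -140 from the start. Mrc1 (chr2:14229164-14229463, plus strand) has them on the opposite strand, so written CTTCCTC, at -168 to -162 and at -36 to -30. Cd36 (chr5:17835847-17836146, minus strand, an annotated start inside the gene's outer bounds) has the STAT6-type letters at 20 to 29 after the start. A match describes letters and is not a shown binding site.
Marco: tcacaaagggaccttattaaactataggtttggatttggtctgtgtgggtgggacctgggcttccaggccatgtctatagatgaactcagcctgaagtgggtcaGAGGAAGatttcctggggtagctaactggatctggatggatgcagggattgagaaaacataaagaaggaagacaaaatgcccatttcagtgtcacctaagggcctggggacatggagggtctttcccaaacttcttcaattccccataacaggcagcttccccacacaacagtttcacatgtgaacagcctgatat
Mrc1: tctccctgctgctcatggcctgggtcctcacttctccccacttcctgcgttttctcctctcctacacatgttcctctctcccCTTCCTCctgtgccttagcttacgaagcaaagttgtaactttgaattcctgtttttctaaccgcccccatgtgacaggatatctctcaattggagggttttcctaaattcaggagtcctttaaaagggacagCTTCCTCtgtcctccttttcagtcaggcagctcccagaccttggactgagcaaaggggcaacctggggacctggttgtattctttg
Cd36: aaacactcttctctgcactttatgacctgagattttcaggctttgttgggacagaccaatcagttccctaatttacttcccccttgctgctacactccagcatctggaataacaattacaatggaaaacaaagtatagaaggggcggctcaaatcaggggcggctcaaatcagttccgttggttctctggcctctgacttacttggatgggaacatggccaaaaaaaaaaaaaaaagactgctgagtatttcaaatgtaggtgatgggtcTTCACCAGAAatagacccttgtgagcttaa

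Cd36 and Scarb1 are the class B receptors, lipid-binding proteins that span the membrane near both ends; Cd36 takes up fatty acids and oxidized lipoproteins and binds thrombospondin, and Scarb1 exchanges cholesterol with high-density lipoprotein. They moved in opposite directions at 1 week. Cd36 (NCBI gene 12491, chromosome 5, 17781690 to 17888959) was at 615.0, 650.7 and 673 CPM in PQ 1w, against 1109, 1067 and 1066 CPM in control 1w. It was 1.69-fold lower in all PQ 1w libraries (log2 -0.75 ± 0.10, adjusted p = 8.54e-05). At 4 weeks it was at 724, 929 and 952 CPM in PQ 4w, against 934, 1107 and 1069.8 CPM in control 4w, with overlapping groups (log2 -0.32 ± 0.10, adjusted p = 0.0577). Without PQ 4w replicate 3 that effect passed the threshold (log2 -0.39, adjusted p = 0.0372), as it did in DESeq2 (log2 -0.31, adjusted p = 0.0311).

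Scarb1 (NCBI gene 20778, chromosome 5, 125277087 to 125341094) was at 235.6, 215.9 and 199.99 CPM in PQ 1w, against 135.5, 146.6 and 141.4 CPM in control 1w. It rose 1.53-fold with no overlap (log2 0.61 ± 0.10, adjusted p = 0.000316). At 4 weeks it was at 105.6, 120.7 and 141.4 CPM in PQ 4w, against 122, 123.9 and 124.3 CPM in control 4w, so that the controls lay inside the PQ range (log2 -0.08 ± 0.10, adjusted p = 0.643).

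Lists of markers of endothelium and adipocytes, which also express Cd36, were counted too. The endothelial list shares Car4, and the adipocyte list Fabp4 and Cidec, with the alveolar macrophage list used further on. Beside these lists, 25.9% of all genes tested were higher and 22.9% lower at 1 week, and 5.75% and 6.39% at 4 weeks. Of 14 genes of lung capillary endothelium, 8 were lower and 1 higher at 1 week, and 9 lower and 2 higher at 4 weeks, with median log2 effects of -0.53 and -0.45. Their summed level was 2994 to 3545 CPM in PQ 1w against 4917 to 5468 in control 1w, and 2835 to 3977 CPM in PQ 4w against 5179 to 5371 in control 4w. The endothelial cadherin Cdh5 fell 1.54-fold at 1 week (adjusted p = 0.000843) and 1.38-fold at 4 weeks (adjusted p = 0.0237), and the endothelial adhesion molecule Pecam1 had log2 effects of -0.58 (adjusted p = 0.000319) and -0.34 (adjusted p = 0.0353). Of 9 adipocyte genes, 2 were lower at 1 week, and at 4 weeks edgeR called 0, with 2 lower at unadjusted p under 0.05 and 1 lower in DESeq2. Their median log2 effects were -0.01 at 1 week and -0.75 at 4 weeks. Their sum was 215.1 to 274 CPM in PQ 1w against 311 to 391 in control 1w. At 4 weeks it was 305 to 402 CPM in PQ 4w against 316 to 383 in control 4w. The 2 genes called lower at 1 week were the lipase genes Lipe and Pnpla2 (log2 -0.79, adjusted p = 5.17e-05, and -0.50, adjusted p = 0.00188). They have the highest levels of that list, so the sum is weighted to them. The mean over the genes of log2(CPM + 0.5), relative to the 6 controls, overlapped between the groups at 1 week. It was -1.14, 0.19 and 0.30 in PQ 1w against 0.72, -0.485 and -0.86 in control 1w. No gene of the endothelial list was at 0 in any library, and only Lep, the adipokine leptin, was at 0 in some libraries among the adipocyte genes. The part of these cells in the Cd36 values was not tested.

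Stab1, Cd163 and Vsig4 clear material from blood and tissue. Stab1, stabilin-1, takes up the matrix protein SPARC and modified lipoproteins; Cd163 takes up hemoglobin bound to haptoglobin; Vsig4 binds fragments of complement C3 and is typical of resident tissue macrophages. All 3 rose at 1 week, and none was called at 4 weeks.

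Stab1 (NCBI gene 192187, chromosome 14, 31139017 to 31168651) was at 329, 226 and 277 CPM in PQ 1w, against 182.9, 175.4 and 215.1 CPM in control 1w. The groups came close without overlapping, and Stab1 rose 1.44-fold (log2 0.53 ± 0.13, adjusted p = 0.00415), the smallest rise of the 9. It was at 187.6, 164.0 and 169.7 CPM in PQ 4w, against 180.9, 161.7 and 184.9 CPM in control 4w (log2 -0.09 ± 0.12, adjusted p = 0.68). Stab1 overlaps the gene Nt5dc2, its expected counts were not whole in every library, and strandedness is not given in the sources used here, so reads of the 2 genes cannot be told apart with certainty.

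Cd163 (NCBI gene 93671, chromosome 6, 124304636 to 124330529) was at 56.0, 30.98 and 35.3 CPM in PQ 1w, against 14.7, 10.3 and 11.2 CPM in control 1w, and rose 3.36-fold (log2 1.75 ± 0.26, adjusted p = 0.000159). PQ 1w replicate 1 was highest, and no control reached the PQ range. At 4 weeks Cd163 was at 18.1, 12.8 and 8.83 CPM in PQ 4w, against 11.5, 10.5 and 10.1 CPM in control 4w, with overlap (log2 0.24 ± 0.27, adjusted p = 0.601). Its expected counts were not whole in every library, so RSEM had divided some of its reads.

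Vsig4 (NCBI gene 278180, chromosome X, 96247201 to 96293438) was the rarest receptor in every group. It was at 6.30, 3.35 and 4.41 CPM in PQ 1w, against 0.224, 0 and 0.0548 CPM in control 1w. These are 260 counts over PQ 1w and 5 over control 1w, a ratio of 50.8 after scaling to library totals, with a 95% interval of 21.5 to 158 that covers counting error only. The fitted effect was log2 5.56 ± 0.67 (adjusted p = 3.34e-05). Since Vsig4 passed the filter only through the group where it is high, this test is not independent of the filter; with no filter the effect was 5.57 (adjusted p = 1.54e-05). It was 7.09 (adjusted p = 0.00012) without control 1w replicate 1, which held most of the control counts. At 4 weeks it was at 0.116, 0.516 and 0.0572 CPM in PQ 4w, against 0.0563, 0.285 and 0.112 CPM in control 4w, or 12 counts against 8, a ratio of 1.53 with an interval of 0.574 to 4.31. A difference at 4 weeks was not detectable at this depth (adjusted p = 0.754).

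Hmox1, the heme-degrading enzyme that acts after Cd163-mediated uptake, rose 6.61-fold at 1 week (log2 2.72 ± 0.18, adjusted p = 4.46e-07), with 231.6 ± 76.8 CPM in PQ 1w and 34.9 ± 1.91 CPM in control 1w. By 4 weeks Hmox1 averaged 43.1 ± 1.37 CPM in PQ 4w and 32.9 ± 3.34 CPM in control 4w (adjusted p = 0.28). Ftl1, a ferritin chain that stores iron, rose 1.67-fold at 1 week (adjusted p = 1.45e-05) and had a log2 effect of -0.10 at 4 weeks (adjusted p = 0.429). Hp, the haptoglobin that Cd163 binds with hemoglobin, was at 622 ± 57.9 CPM in PQ 1w and 813 ± 85.4 CPM in control 1w (adjusted p = 0.0593). It was at 946 ± 244.9 CPM in PQ 4w and 1253 ± 84.9 CPM in control 4w (adjusted p = 0.0756). C3, the source of the Vsig4 ligands, was at 1257 ± 118 CPM in PQ 1w and 1140 ± 148 CPM in control 1w (adjusted p = 0.478), and at 1244 ± 234 CPM in PQ 4w and 923 ± 150 CPM in control 4w (adjusted p = 0.127). A link of these whole-lung values to Cd163 or Vsig4 was not tested.

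Mrc1, Clec7a and Siglec1 are the lectins. Mrc1, the mannose receptor, takes up mannose-bearing glycoproteins and is typical of tissue-resident and alternatively activated macrophages; Clec7a, dectin-1, recognizes fungal beta-glucan; Siglec1, sialoadhesin, binds sialic acid on other cells and particles. Mrc1 and Siglec1 rose at both times, and Clec7a was called at 1 week only. For Clec7a the difference between the times did not pass the test (-0.45 ± 0.31, adjusted p = 0.294).

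Mrc1 (NCBI gene 17533, chromosome 2, 14229414 to 14332023) was at 163.3, 177.7 and 178.7 CPM in PQ 1w, against 51.0, 45.9 and 48.2 CPM in control 1w. It rose 3.56-fold (log2 1.83 ± 0.07, adjusted p = 1.32e-08), the 9th smallest p of all genes. PQ 4w libraries held Mrc1 at 88.1, 71.0 and 75.8 CPM in PQ 4w, against 37.7, 41.0 and 40.9 CPM in control 4w. No group overlapped, and Mrc1 rose 1.87-fold (log2 0.90 ± 0.07, adjusted p = 0.000156), the 3rd smallest p of all genes at that time. The effect was smaller at 4 weeks (difference -0.93 ± 0.10, adjusted p = 9.05e-05).

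Siglec1 (NCBI gene 20612, chromosome 2, 131067801 to 131086778) was at 34.3, 44.3 and 33.5 CPM in PQ 1w, against 7.17, 6.75 and 8.88 CPM in control 1w, and rose 4.87-fold (log2 2.28 ± 0.22, adjusted p = 5.78e-06). Its levels at 4 weeks were 15.7, 12.03 and 23.3 CPM in PQ 4w, against 5.30, 6.33 and 7.57 CPM in control 4w. All PQ 4w libraries were above all controls, and it rose 2.52-fold (log2 1.33 ± 0.22, adjusted p = 0.00396).

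Clec7a (NCBI gene 56644, chromosome 6, 129461591 to 129472785) was at 44.2, 77.2 and 65.7 CPM in PQ 1w, against 28.2, 23.7 and 34.6 CPM in control 1w, and rose 2.15-fold (log2 1.10 ± 0.22, adjusted p = 0.00149). Levels at 4 weeks were 43.1, 36.3 and 61.9 CPM in PQ 4w, against 29.0, 32.8 and 23.8 CPM in control 4w. Every PQ 4w library was above every control, and the effect did not pass the threshold (log2 0.65 ± 0.22, adjusted p = 0.0799). It passed in DESeq2 (log2 0.67, adjusted p = 0.0252) and without PQ 4w replicate 2 (log2 0.81, adjusted p = 0.0447). Malt1, which carries the dectin-1 signal, rose at both times (log2 0.68, adjusted p = 0.000676, and 0.65, adjusted p = 0.00696), as did Tlr2, a receptor that cooperates with dectin-1 (log2 0.92, adjusted p = 0.000354, and 0.56, adjusted p = 0.0378). The partners nearer to the receptor were not called at either time. Syk, the kinase that dectin-1 recruits, had log2 effects of -0.33 (adjusted p = 0.173) and 0.00 (adjusted p = 0.996), and the phospholipase Plcg2 had -0.04 (adjusted p = 0.901) and 0.51 (adjusted p = 0.129). Card9, the adaptor that joins Malt1 and Bcl10, had 0.33 (adjusted p = 0.0611) and -0.07 (adjusted p = 0.788). Bcl10 rose at 1 week (log2 0.23, adjusted p = 0.0143) and had 0.06 at 4 weeks (adjusted p = 0.599).

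**Figure D2:**
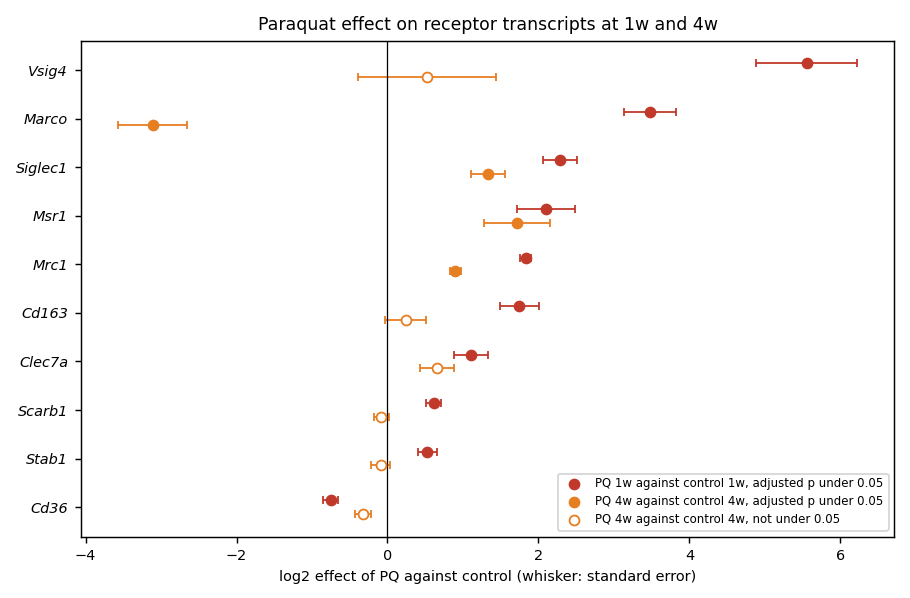
Log2 effect of PQ against control for each receptor at 1 week (red) and 4 weeks (orange), horizontal axis, with bars of 1 standard error; open symbols are effects with adjusted p of 0.05 or more. Marco lies at 3.48 at 1 week and at -3.11 at 4 weeks, and Cd36 is the only receptor below 0 at 1 week.

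Set side by side between the times, the effect of PQ was lower at 4 weeks than at 1 week for 7 receptors (6 without Vsig4), higher (less negative) for Cd36, and did not differ beyond the test for Msr1 and Clec7a. Over all genes 32.0% differed, 14.1% higher and 17.9% lower. The calls for Cd36 (0.43 ± 0.14, adjusted p = 0.0392) and Siglec1 (-0.95 ± 0.31, adjusted p = 0.0352) were lost when most of the single libraries were left out, with adjusted p up to 0.0965 and 0.0963. Those for Scarb1 (-0.69 ± 0.14, adjusted p = 0.00312), Cd163 (-1.51 ± 0.37, adjusted p = 0.00879), Mrc1 and Marco held without any 1 library. Between treated lungs, 8 receptors were lower in PQ 4w than in PQ 1w (7 without Vsig4), Cd36 was higher and Clec7a was not called, beside 27.8% of all genes lower and 26.7% higher (54.5% in either direction). The groups of those 9 did not overlap, beside 27.0% of all genes on the lower side and 34.0% on the higher side. Those 9 include Vsig4, whose separation is not independent of the filter. Marco was 72.9-fold lower in PQ 4w than in PQ 1w (log2 -6.19 ± 0.43, adjusted p = 5.12e-07), the 4th lowest of all genes, and Vsig4 20.8-fold lower (log2 -4.38 ± 0.58, adjusted p = 6.67e-05). Without PQ 4w replicate 2, the highest PQ 4w library for both, these differences were -7.01 and -5.74. Msr1 was 4.05-fold lower (adjusted p = 0.000827), Cd163 3.24-fold (adjusted p = 0.000171), Mrc1 2.32-fold (adjusted p = 1.44e-07) and Siglec1 2.31-fold (adjusted p = 0.000441). Scarb1 was 1.86-fold lower (adjusted p = 1.74e-05) and Stab1 1.68-fold (adjusted p = 0.000366).

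Cd36 was 1.28-fold higher in PQ 4w than in PQ 1w (log2 0.36 ± 0.10, adjusted p = 0.0105). The call was lost without PQ 4w replicate 2 (adjusted p = 0.0534) and without PQ 4w replicate 3 (adjusted p = 0.0541). Clec7a had a log2 difference of -0.48 ± 0.22 (adjusted p = 0.0822) between PQ 4w and PQ 1w, with overlapping groups. It was called lower without PQ 1w replicate 1 (-0.67, adjusted p = 0.0216) or without PQ 4w replicate 3 (-0.74, adjusted p = 0.00916).

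Between the saline controls, 2 receptors were lower in control 4w than in control 1w, 0 were higher (also 0 at unadjusted p under 0.05 and in DESeq2) and 8 were not called, while 10.1% of all genes changed, 5.9% higher and 4.2% lower. Mrc1 was 1.22-fold lower without overlap (log2 -0.29 ± 0.07, adjusted p = 0.0343), and Msr1 3.11-fold lower with overlapping groups (log2 -1.64 ± 0.44, adjusted p = 0.0391). Neither call was stable. The Msr1 call was lost without control 1w replicates 1 or 3, any control 4w replicate or any PQ 1w replicate, each left out singly (adjusted p 0.0509 to 0.13), and with the replicate block (0.0554). The Mrc1 call was lost without control 1w replicates 1 or 3, any control 4w replicate or PQ 1w replicate 3, again singly (adjusted p 0.0513 to 0.102), and with library totals as scaling (0.0528). Limma on FPKM called neither, with adjusted p of 0.0599 to 0.0706 over its 3 settings. Scarb1 was the other receptor whose control groups did not overlap, lower in control 4w with a log2 difference of -0.20 (adjusted p = 0.2), beside 14.2% of all genes not overlapping on that side and 19.8% on the higher side. The other 7 had adjusted p-values of 0.475 to 0.956. Other tissue genes moved between the control groups: of 10 cardiac and skeletal muscle genes 8 were higher in control 4w (median log2 3.22), with sums of 596 to 1726 CPM in control 4w against 54.9 to 316.4 in control 1w. Of 10 airway genes 4 were higher in control 4w, with sums of 47380 to 55010 CPM in control 4w against 22360 to 31030 in control 1w, and of the 8 macrophage core genes 3 were lower in control 4w. Their part in the receptors' values was not tested.

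Levels per length were compared with the deposited FPKM (fragment counts scaled to transcript length and library total). In every group Cd36 was the most abundant of the 10 and Scarb1 the next, without overlap between their ranges. Cd36 averaged 187 ± 8.52 FPKM in PQ 1w and 312.6 ± 7.09 in control 1w, and 250.7 ± 36.3 FPKM in PQ 4w and 299 ± 26.2 in control 4w. Marco stood at the third place in PQ 1w, at 48.0 ± 5.75 FPKM, and at the sixth in control 1w, at 4.26 ± 0.26 FPKM. In PQ 4w it was at the ninth place, at 0.683 ± 0.542 FPKM, and in control 4w at the sixth, at 5.70 ± 3.25 FPKM. In PQ 1w the order after Marco was Stab1, Mrc1, Clec7a, Msr1, Cd163, Siglec1 and Vsig4, with overlapping ranges among Stab1, Mrc1 and Clec7a. In control 1w the order after Scarb1 was Stab1, Clec7a, Mrc1, Marco, Msr1, Cd163, Siglec1 and Vsig4, with Msr1 overlapping Marco, Cd163 and Siglec1. The PQ 4w order after Scarb1 was Clec7a, Stab1, Mrc1, Msr1, Cd163, Siglec1, Marco and Vsig4. Clec7a overlapped Stab1, Marco overlapped Vsig4, and Msr1, Cd163 and Siglec1 overlapped each other. In control 4w Stab1, Clec7a, Mrc1, Marco, Cd163, Siglec1, Msr1 and Vsig4 followed, with overlaps between Mrc1 and Marco and between Siglec1 and Msr1.

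Cd36 alone made up most of the summed FPKM of the set outside PQ 1w. Its share was 40.2%, 41.4% and 43.6% in PQ 1w, against 74.0%, 74.2% and 72.0% in control 1w. The share at 4 weeks was 65.1%, 71.4% and 68.1% in PQ 4w, against 73.1%, 75.2% and 75.9% in control 4w. The other 9 receptors summed to 264.5, 266.6 and 252.3 FPKM in PQ 1w, against 112.5, 107.5 and 119.8 FPKM in control 1w, and to 112.2, 107.2 and 128.7 FPKM in PQ 4w, against 99.5, 105.8 and 98.0 FPKM in control 4w. The gene length in the tables differed between libraries for Msr1, at 2568 to 3248 bases, which enters its FPKM and not its CPM.

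Transcripts shared by macrophages in general were taken as a core list of Adgre1, Cd68, Csf1r, Fcgr1, Mertk, Cybb, Tyrobp and Fcer1g. Their summed level was 690.0 to 691.6 CPM in PQ 1w against 395.7 to 559.5 in control 1w, and 469 to 615 CPM in PQ 4w against 330.2 to 394 in control 4w. Of the 8 genes 4 rose and 0 fell at 1 week, and 3 rose and 0 fell at 4 weeks, with median log2 effects of 0.64 and 0.54. Csf1r, the receptor for colony-stimulating factor 1, was at 168.1 ± 14.6 CPM in PQ 1w and 154 ± 17.7 CPM in control 1w (adjusted p = 0.393), and Cybb, a subunit of the phagocyte oxidase, at 90.9 ± 9.74 CPM in PQ 1w and 74.6 ± 22.3 CPM in control 1w (adjusted p = 0.342). At 4 weeks Csf1r was at 150.9 ± 15.3 CPM in PQ 4w and 126.6 ± 12.2 CPM in control 4w (adjusted p = 0.302), and Cybb at 90.9 ± 29.1 CPM in PQ 4w and 52.2 ± 9.16 CPM in control 4w (adjusted p = 0.0606).

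Each receptor was then set against the mean log2(CPM + 0.5) of the 8 core genes in the same library, as a description without a test. The core mean itself was 6.20 ± 0.02 in PQ 1w and 5.50 ± 0.30 in control 1w, and 5.80 ± 0.23 in PQ 4w and 5.05 ± 0.17 in control 4w, with no overlap at either time. Relative to it at 1 week, Marco was higher by 2.72 in PQ 1w, Vsig4 by 2.41, Msr1 by 1.59, Siglec1 by 1.52, Mrc1 by 1.13 and Cd163 by 0.98, all without overlap. Cd36 stood at -1.44 without overlap, and Stab1 (-0.17), Scarb1 (-0.08) and Clec7a (0.38) had overlapping groups. At 4 weeks only Msr1 was higher without overlap, by 0.88 in PQ 4w. Marco (-3.46), Cd36 (-1.01), Scarb1 (-0.77) and Stab1 (-0.76) were lower without overlap. Mrc1 (0.21), Siglec1 (0.56), Clec7a (-0.06), Cd163 (-0.50) and Vsig4 (-0.62) had overlapping groups. Vsig4 was at 0 to 0.516 CPM in all libraries outside PQ 1w, where the added 0.5 sets much of its value. Its 2.41 and -0.62 are thus bound by this floor, and its fitted log2 effects were 5.56 and 0.52. The added 0.5 also lifts Marco in PQ 4w, at 0.406, 2.52 and 1.14 CPM, so its -3.46 is limited by it too.

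**Figure D3:**
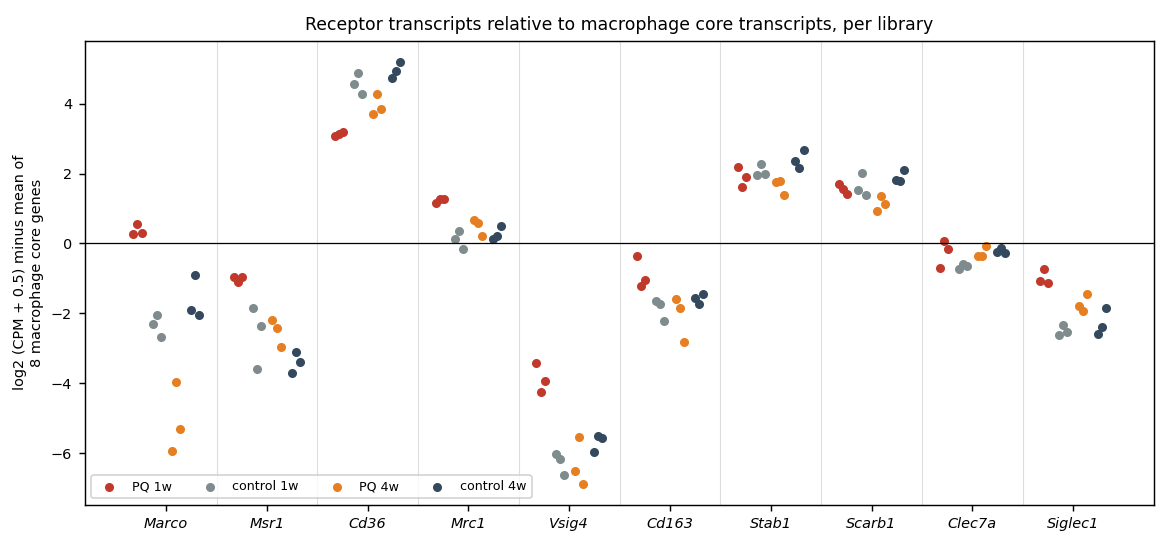
Each receptor's log2(CPM + 0.5) minus the mean log2(CPM + 0.5) of 8 macrophage core genes in the same library (vertical axis). Points are libraries. The 3 PQ 4w points of Marco, at -5.95, -3.97 and -5.31, lie below all other Marco points. The added 0.5 raises these low values.

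Lists of macrophage subtypes were counted as well. For them and the core list, the shares of all genes tested were 25.9% higher and 22.9% lower at 1 week. At 4 weeks the shares were 5.75% and 6.39%. Some genes stand in several lists of this report and are counted in each. Among them, Fabp5 is in both subtype lists, and Ccr2 in the interstitial and monocyte lists. Cd68 is in the core list and among the other scavenger receptors, and Apoe in the interstitial list and among the ligands. Of 16 alveolar macrophage genes 7 rose and 2 fell at 1 week, and 3 rose and 2 fell at 4 weeks, with median log2 effects of 0.36 and 0.08. Their summed levels were 1909 to 2562 CPM in PQ 1w against 913.5 to 956.5 in control 1w, and 859 to 1080.0 CPM in PQ 4w against 969.6 to 1131 in control 4w. The sum is weighted to the abundant Chil3 and Lpl: the mean over the genes of log2(CPM + 0.5), relative to the 6 controls, was -0.17, 0.59 and 0.36 in PQ 1w against -0.03, -0.02 and -0.10 in control 1w, which overlap. Chil3, a chitinase-like protein secreted by macrophages, rose 4.40-fold at 1 week (adjusted p = 2e-06), with 1292 ± 232.2 CPM in PQ 1w and 291.3 ± 3.66 CPM in control 1w, and was at 277 ± 82.9 CPM in PQ 4w and 263.1 ± 5.90 CPM in control 4w. Lpl, lipoprotein lipase, rose 2.16-fold at 1 week (adjusted p = 0.0019) and had a log2 effect of -0.14 at 4 weeks (adjusted p = 0.746). Krt79, a keratin of alveolar macrophages, fell at both times (log2 -2.08, adjusted p = 0.00686, and -2.36, adjusted p = 0.0172), and Siglecf, a lectin used as a marker of alveolar macrophages in mice, was not called at either (log2 -0.21, adjusted p = 0.622, and -0.68, adjusted p = 0.224). Krt79 was picked out after its values were seen. Of 20 interstitial and monocyte-derived macrophage genes 14 rose and 2 fell at 1 week, and 11 rose and 1 fell at 4 weeks. They summed to 4809 to 5203 CPM in PQ 1w against 1943 to 2063 in control 1w, and to 2526 to 3031 CPM in PQ 4w against 1876 to 2101 in control 4w. Spp1, osteopontin, rose 18.8-fold at 1 week (log2 4.23 ± 0.27, adjusted p = 2.85e-07). No gene of these 3 macrophage lists was at 0 in any library, and the part of macrophage number in the receptors' values was not tested.

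Lists of other cell types were counted in the same way, beside 25.9% of all genes higher and 22.9% lower at 1 week. At 4 weeks 5.75% of all genes were higher and 6.39% lower. Of 10 monocyte genes 0 rose and 5 fell at 1 week, and 1 rose and 0 fell at 4 weeks; the chemokine receptor Ccr2 fell at 1 week with overlapping groups (log2 -0.91, adjusted p = 0.0201), and Ace, a peptidase shared with endothelium, had a log2 effect of -0.02 (adjusted p = 0.891). At 4 weeks Ccr2 had 0.56 (adjusted p = 0.239) and Ace -0.08 (adjusted p = 0.625). Of 10 dendritic cell genes 1 rose and 8 fell at 1 week, and 6 rose and 0 fell at 4 weeks. The dendritic cell factor Irf8 fell at 1 week (log2 -0.38, adjusted p = 0.0151) and rose at 4 weeks (0.72, adjusted p = 0.00309), as did the lectin Clec9a (-0.83, adjusted p = 1.39e-05, and 0.32, adjusted p = 0.0334). Of 10 neutrophil genes 0 rose and 4 fell at 1 week, and 0 rose and 7 fell at 4 weeks. The alarmin S100a9 had a log2 effect of -1.06 at 1 week (adjusted p = 0.127) and fell at 4 weeks with overlapping groups (-2.23, adjusted p = 0.0255), and lactoferrin, Ltf, had 2.14 (adjusted p = 0.0774) and 2.64 (adjusted p = 0.0867). Among 10 genes of alveolar type 2 epithelium 0 rose and 9 fell at 1 week, and 3 rose and 0 fell at 4 weeks (6 rose with library totals as scaling, 1 without PQ 4w replicate 3). The surfactant genes Sftpc and Sftpb fell at 1 week (log2 -0.90, adjusted p = 5.4e-05, and -0.28, adjusted p = 0.0436) and had -0.01 and 0.04 at 4 weeks (adjusted p = 0.981 and 0.846). Among 10 airway genes 0 rose and 3 fell at 1 week, and 0 rose and 1 fell at 4 weeks; without PQ 4w replicate 3 these were 1 and 6 at 1 week and 2 and 1 at 4 weeks. The club cell genes Scgb1a1 and Cyp2f2 fell at 1 week (log2 -2.63, adjusted p = 4.21e-06, and -2.66, adjusted p = 4.99e-07), and at 4 weeks Cyp2f2 fell (-0.63, adjusted p = 0.0356) and Scgb1a1 had -0.51 (adjusted p = 0.168). Of 10 muscle genes edgeR and DESeq2 called 0 at either time, with unadjusted p under 0.05 for 0 at 1 week and for 2, both lower, at 4 weeks. The cardiac genes Myh6 and Actc1 had log2 effects of 0.24 (adjusted p = 0.864) and -0.60 (adjusted p = 0.353) at 1 week, and -0.96 (adjusted p = 0.57) and -1.05 (adjusted p = 0.188) at 4 weeks.

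**Figure D4:**
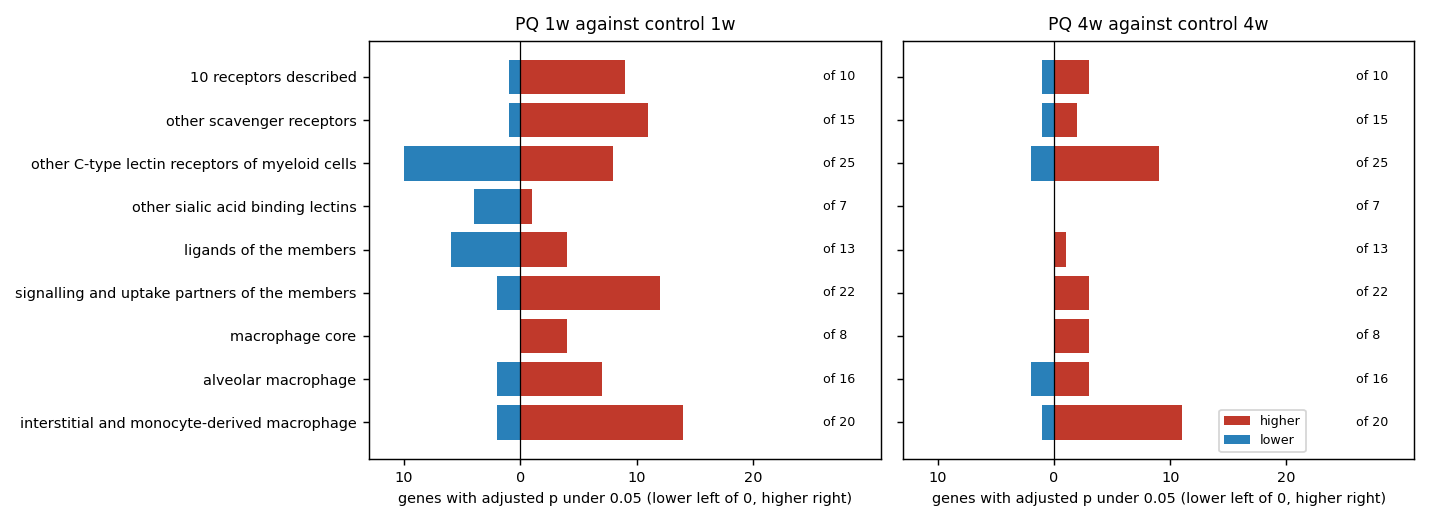
Number of genes called higher (right of 0) and lower (left of 0) in PQ at 1 week and 4 weeks for the 10 receptors, 5 lists of related genes and 3 macrophage lists, of the tested genes in each list. The receptors had 9 higher and 1 lower at 1 week and 3 higher and 1 lower at 4 weeks.

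Receptors related to the 10 were counted from lists. These and the counts that follow stand beside 25.9% of all genes higher and 22.9% lower at 1 week. The 4-week shares were 5.75% higher and 6.39% lower. Of 15 other scavenger receptors 11 rose and 1 fell at 1 week (median log2 0.50), and 2 rose and 1 fell at 4 weeks (median 0.20). Ssc5d, a soluble scavenger protein, rose 3.22-fold at 1 week (log2 1.69 ± 0.08, adjusted p = 4.91e-08), with 59.0 ± 6.62 CPM in PQ 1w and 18.2 ± 0.774 CPM in control 1w. Megf10, a receptor for dying cells, rose 10.4-fold (log2 3.37 ± 0.40, adjusted p = 3.01e-05), on levels of 6.82 ± 3.14 CPM in PQ 1w and 0.647 ± 0.262 CPM in control 1w. Stab2, the relative of Stab1 that takes up hyaluronan, rose at both times, 1.58-fold at 1 week (adjusted p = 0.0136) and 2.31-fold at 4 weeks (adjusted p = 0.00361). Cd68, the lysosomal scavenger receptor of macrophages, had the smallest p of its list at both times. It rose 3.66-fold at 1 week, with 120.6 ± 4.00 CPM in PQ 1w and 32.7 ± 3.31 CPM in control 1w (adjusted p = 2.1e-08), and 2.19-fold at 4 weeks (log2 1.13 ± 0.08, adjusted p = 8.03e-05), with 57.0 ± 5.42 CPM in PQ 4w and 24.8 ± 1.39 CPM in control 4w. Scarf1, an endothelial scavenger receptor, was 1.31-fold lower at 1 week (adjusted p = 0.0117) and 1.29-fold lower at 4 weeks (adjusted p = 0.0497), and the 4-week call was lost with DESeq2's size factors and with library totals.

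Of 25 other C-type lectin receptors of myeloid cells 8 rose and 10 fell at 1 week (median log2 -0.39), and 9 rose and 2 fell at 4 weeks (median 0.31). Clec4n, dectin-2, the fungal mannan receptor, rose 7.28-fold at 1 week (log2 2.86 ± 0.17, adjusted p = 1.61e-07), with 56.6 ± 7.72 CPM in PQ 1w and 7.71 ± 1.23 CPM in control 1w. It rose 2.39-fold at 4 weeks (adjusted p = 0.0017), with 14.97 ± 3.68 CPM in PQ 4w and 5.94 ± 0.509 CPM in control 4w. Clec10a, a galactose-type lectin, rose 2.02-fold at 1 week (adjusted p = 0.0021) and 2.52-fold at 4 weeks (adjusted p = 0.00343). For the inhibitory receptor Clec12a the rise was 1.60-fold at 1 week (adjusted p = 0.0105) and 2.16-fold at 4 weeks (adjusted p = 0.00407). Cd209a, a DC-SIGN relative of dendritic cells, was 8.92-fold lower at 1 week (log2 -3.16 ± 0.29, adjusted p = 3.64e-06), with 1.41 ± 0.280 CPM in PQ 1w and 12.5 ± 0.446 CPM in control 1w. At 4 weeks Cd209a was at 14.01 ± 5.75 CPM in PQ 4w and 8.81 ± 1.81 CPM in control 4w (adjusted p = 0.128). Cd302 rose 1.86-fold at 1 week (adjusted p = 6.13e-06) and 1.24-fold at 4 weeks (adjusted p = 0.0419).

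The genes beside Clec7a on chromosome 6 include several of these lectins. Within 150 kb there were 13 other genes in the tables, of which 10 were tested. While Clec7a rose at 1 week, 2 of the 10 rose (Clec12a and Olr1, the lectin-like receptor for oxidized lipoprotein) and 8 fell. Of those that fell, the natural killer receptor genes had the largest effects, with Klre1 at log2 -3.33, Klrk1 at -1.82 and Klrd1 at -1.68. At 4 weeks Clec12a (log2 1.11), Clec12b (0.92) and Clec9a (0.32) rose, Clec1b fell (-0.71) and 6 were not called.

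Of 7 other sialic acid binding lectins 1 rose and 4 fell at 1 week (median log2 -0.98), and at 4 weeks 0 were called by edgeR, 0 had an unadjusted p under 0.05 and DESeq2 called 0. The B cell lectin Siglecg fell 3.64-fold at 1 week (log2 -1.86 ± 0.24, adjusted p = 6.13e-05), Siglech, a lectin of plasmacytoid dendritic cells, fell 2.76-fold (adjusted p = 0.00742), and Siglece, an inhibitory lectin of myeloid cells, fell 1.98-fold (adjusted p = 0.00767). Cd33 rose 1.62-fold at 1 week (adjusted p = 0.0207). Their 4-week effects were 0.22, 0.65, -0.30 and 0.33 on the log2 scale for Siglecg, Siglech, Siglece and Cd33, with adjusted p-values of 0.538, 0.201, 0.489 and 0.384.

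Of 13 ligands of the receptors 4 rose and 6 fell at 1 week, and 1 rose and 0 fell at 4 weeks. Thbs2, a thrombospondin of the kind that Cd36 binds, rose 9.15-fold at 1 week (log2 3.19 ± 0.27, adjusted p = 1.91e-06), with 34.1 ± 8.95 CPM in PQ 1w and 3.69 ± 1.64 CPM in control 1w. Thbs2 was at 4.55 ± 0.320 CPM in PQ 4w and 2.83 ± 0.154 CPM in control 4w at 4 weeks (adjusted p = 0.185). Apoe, an apolipoprotein of lipid-loaded macrophages, rose 2.48-fold at 1 week (adjusted p = 7.63e-06) and 2.17-fold at 4 weeks (adjusted p = 0.000782). Sftpa1, surfactant protein A, was 2.05-fold lower at 1 week (adjusted p = 5.21e-06) and had a log2 effect of 0.23 at 4 weeks (adjusted p = 0.145). The 6 that fell held 4 hemoglobin genes, 2 of the alpha chain and 2 of the beta chain. Reads of the near-identical copies within a chain cannot be told apart with certainty. Of 22 signalling and uptake partners 12 rose and 2 fell at 1 week, and 3 rose and 0 fell at 4 weeks (2 and 3 without PQ 4w replicate 3). Abca1, which exports cholesterol taken up through these receptors, rose 1.89-fold at 1 week (adjusted p = 2.93e-05) and 1.56-fold at 4 weeks (adjusted p = 0.00405).

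Replicate 3 of PQ 4w lay apart from the other PQ 4w libraries in principal components of log2 CPM. On the second component, with 19.9% of the variance, it was at -4.92 while replicates 1 and 2 were at 42.0 and 40.3. Without it, 3 receptors rose and 2 fell at 4 weeks (the added one being Cd36), and no receptor changed direction. The related lists then had 2 rising and 2 falling of the other scavenger receptors, 8 and 3 of the C-type lectins, 0 and 1 of the sialic acid binding lectins, and 11 and 1 of the interstitial macrophage genes. The macrophage core then had 2 and 0, the alveolar macrophage genes 2 and 3, the monocyte genes 0 and 0 (against 1 and 0 with it) and the neutrophil genes 1 and 5 (against 0 and 7).

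Genes whose pattern over the 12 libraries was most like a receptor's were found by Pearson's r of log2(CPM + 0.5), a description in which all points share the 4 groups. Mrc1 was most like Cd68 (r = 0.994), Clec4n (0.992) and Pdgfc (0.989). Siglec1 was most like Axl (0.993), a receptor for dying cells, Abhd12 (0.988) and Lipa (0.984), the lysosomal acid lipase. Vsig4 was most like Timm23 (0.988), Tiam2 (0.988) and Ctsl (0.985), and Scarb1 like Loxl1 (0.988), Ykt6 (0.984) and Arf2 (0.982). Outside PQ 1w Vsig4 lies near the floor of the added 0.5, so every r with it is weighted to PQ 1w against the rest. Its rank correlation (Spearman's rho) was 0.902 with Timm23, 0.818 with Tiam2 and 0.797 with Ctsl. Marco was most like Pdlim7 (0.985), Sapcd2 (0.982) and Fstl3 (0.973), and Cd36 like Hes2 (0.978), Slc5a12 (0.975) and Cav2 (0.973). Msr1 was most like Ms4a6d (0.974), Xpr1 (0.971) and Susd6 (0.966), and Cd163 like Ipo5 (0.970), Pidd1 (0.969) and Spsb1 (0.968). Stab1 was most like Figf (0.968), Zyx (0.954) and Nt5dc2 (0.953), its overlapping neighbour, and Clec7a like Ttc39b (0.957), Msh3 (0.945) and Kynu (0.943). Among the receptors themselves, Mrc1 and Siglec1 had an r of 0.967 and Vsig4 and Cd163 of 0.944, Marco and Clec7a had 0.338, and Cd36 had a negative r with the other 9, from -0.477 to -0.926.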

How the data were processed

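Lung RNA of 12 libraries was sequenced on a BGISEQ instrument after a check of RNA integrity, per the labels' protocols. The submitters' processing notes name HISAT, RSEM 1.2.12 and mm10. Which HISAT version, strandedness and annotation were used is not given in the sources used here. The authors deposited RSEM expected counts per gene, not scaled to depth, and FPKM values scaled by them to transcript length and library size, per the file headers. Genes not listed in a library's table count as 0 there, and 27 symbols turned into dates were restored from gene IDs. Of the listed counts 69.7% were whole, and all were rounded.

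The test was edgeR's glmQLFit and glmQLFTest on all 12 libraries with 4 group means, TMM scaling (factors 0.974 to 1.06) and filterByExpr (minimum count 10, minimum total 15). Standard errors were derived from each log2 effect and its F statistic, as their size over the root of F. CPM in the text are per library total, without TMM. No test was run on FPKM in the main analysis. Alternatives were DESeq2's size factors and Wald test, library totals, no filter, the replicate number as a block, the 2 compared groups alone, each library left out, and limma on log2(FPKM + 1) or log2(FPKM + 0.1), the first also at a mean FPKM of at least 1. The edgeR step was tested on simulated counts. Versions were R 4.3.3, edgeR 4.0.16, limma 3.58.1, DESeq2 1.42.0 and Python 3.11.15.

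The receptors, lists, tests and alternatives were chosen with earlier results of these data known. Named genes were the 10 receptors, the 3 genes of smallest p at each time in each list of related genes, the 2 of highest CPM in each cell type list, and the 3 most correlated with each receptor. Genes named beyond this rule (Krt79, Lep, Syk, Plcg2, Card9, Bcl10 and the neighbours of Clec7a) were added after their values were seen. Of 28 listed C-type lectins 25 were tested, and of 14 ligands 13. Intervals cover counting error only. NCBI's GRCm38 gene table supplied coordinates, with 20718 genes found by ID.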

Additional observations from a re-analysis of the deposited data

Results flagged for a closer look

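For 8 of the 10 receptors the effect of PQ at 4 weeks differed from that at 1 week by the interaction term of the edgeR fit (Benjamini-Hochberg adjusted p under 0.05, n = 3 per group), beside 32.0% of all genes tested. The difference, 4 weeks minus 1 week on the log2 scale, was -6.60 for Marco, -5.03 for Vsig4, -1.51 for Cd163, -0.95 for Siglec1, -0.93 for Mrc1, -0.69 for Scarb1, -0.62 for Stab1 and 0.43 for Cd36. Marco was the only one of the 8 with called effects of opposite sign at the 2 times. Vsig4 passed the filter on low counts only through PQ 1w, the group where it is high, so its difference is not independent of the filter; without it, 7 of 9 receptors differed. The Vsig4 difference (adjusted p = 0.0134, and 0.0123 with no filter) was lost without control 4w replicate 2 (adjusted p = 0.108), and rests on 12 Vsig4 counts over PQ 4w against 8 over control 4w. The Stab1 difference (adjusted p = 0.0192) was lost without control 4w replicate 1 (adjusted p = 0.0517) or without control 4w replicate 3 (adjusted p = 0.0504). The Siglec1 difference was lost with library totals as scaling (adjusted p = 0.0502) and without 8 of the 12 libraries taken singly, namely control 1w replicates 1 and 2, control 4w replicates 2 and 3, PQ 1w replicates 1 and 2 and PQ 4w replicates 1 and 2 (adjusted p 0.0544 to 0.0963). The Cd36 difference was called without PQ 4w replicate 1 (0.55, adjusted p = 0.002) and lost without each of the other 11 libraries (adjusted p 0.0503 to 0.0965).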

How the results depend on the processing

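All 10 calls at 1 week held in every alternative that tested them; Vsig4 was not tested at a mean FPKM of at least 1. At 4 weeks the count of receptors called higher was 3, 4 in DESeq2 and 2 to 4 with single libraries left out, and the count called lower was 1, and 2 with the replicate block and in DESeq2, and 1 to 2 with single libraries left out (2 without PQ 4w replicate 3). The count higher in the difference of effects was 1, and 0 without the filter (adjusted p = 0.0544 for Cd36) and 0 to 1 with libraries left out; the count lower there was 7, and 5 to 7 with libraries left out. The count higher in PQ 4w against PQ 1w was 0 to 1, and the count lower in control 4w against control 1w was 2, but 1 with library totals, 1 with the replicate block, 0 in each of the 3 limma settings and 0 to 2 with libraries left out. Directions that reversed, none of them called, did so with single libraries left out: at 4 weeks Vsig4 (-0.82 to 1.30), Cd163 (-0.036 to 0.46) and Scarb1 (-0.19 to 0.026), Msr1 in the difference of effects (-0.78 to 0.056), and between controls Marco (-0.14 to 0.67), Vsig4 (-0.13 to 2.17) and Clec7a (-0.15 to 0.12). The replicate numbers were not stated to pair libraries, and same-numbered libraries correlated at -0.35 to 0.28, over 0.1 in 5 of 18 pairs, with their own number the best match in 5 of 18; the block called Cd36 lower at 4 weeks (-0.33, adjusted p = 0.046) and lost Msr1 between controls (-1.54, adjusted p = 0.0554). Over all genes, 1932 were called at 4 weeks but 746 with the compared groups alone and as few as 641 without 1 library (control 4w replicate 1), and between controls 1609 were called but 123 to 2570 with a library left out. The difference of effects needs all 4 groups and was not run on compared groups alone. Depth limits Vsig4 most, with 5 to 12 counts over a group outside PQ 1w.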
